A study of Mus musculus with 2 samples.

Results

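Open chromatin was examined at 6 genes that encode receptors and junction proteins of endothelial cells, Tie1, Tek, Flt1, Kdr, Cdh5 and Pecam1, in basal epidermal cells of the mouse. A peak was taken when it overlapped 1 of these genes, or lay within 50 kb with that gene as its nearest protein-coding gene. This gave 45 of the 84594 distinct peaks in the deposited table, namely 4 at Tie1, 8 at Tek, 12 at Flt1, 1 at Kdr, 2 at Cdh5 and 18 at Pecam1, and none of the 45 overlapped another protein-coding gene. In ATAC-seq, a transposase cuts and tags DNA where chromatin is open. The study has 1 library from epidermis with ablation of the basal lineage and 1 library from control epidermis, whose genotype is given as WT. In both, cells traced with K14 were sorted as α6 integrin high, CD34- and Lrig1-, with the fluorescent reporters YFP, GFP and RFP. The labels do not state the way cells were ablated, the time after ablation, or the number and age of the animals. Values are normalized reads per peak, that is reads divided by 1 factor per library.

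With 1 library per group, spread between animals could not be measured. No difference was tested, and peaks were called by size alone, at 2-fold on the scale of signal plus 1 normalized read. Fold values are ratios of normalized reads, ablation over control, and the range in brackets after a fold is its 95% exact counting interval, which covers counting error only. Nuclear peaks held 12463908 reads in the ablation library and 17056996 reads in the control library. In bulk libraries, a larger share of cells with an open site and more open chromatin per cell cannot be told apart.

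Vascular endothelial growth factor A (VEGF-A), which keratinocytes secrete, acts on blood vessels of the dermis through the receptor tyrosine kinase Kdr (VEGFR2). Flt1 (VEGFR1) binds VEGF-A and placental growth factor and, in its soluble form, limits signalling through Kdr. Tek (Tie2) is the receptor of the angiopoietins, and Tie1 is a related receptor that pairs with it. Cdh5 (VE-cadherin) and Pecam1 (CD31) join endothelial cells to each other, and Pecam1 is also present on platelets and leukocytes. The epidermis has no blood vessels, and these 6 genes are standard markers of vessels in skin.

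The RefSeq table of promoters for GRCm38.p6, the assembly behind mm10, held an entry for 4 of the 6 genes (Tie1, Tek, Flt1 and Kdr). The 250 bases before the annotated start of each are shown because a peak lay over 3 of the windows and not over the fourth. The start is the site of the promoter entry, and distances from a start use it. It is 118489849 for Tie1, 94739289 for Tek, 147726011 for Flt1 and 75978455 for Kdr. For Tek, Flt1 and Kdr this site lies inside the gene bounds given below, so their windows lie wholly or mostly within those bounds. Capitals mark the core of ETS factor sites, GGAAG, on either strand; ETS factors are known regulators of endothelial genes. The windows are chr4:118489850-118490099 on the minus strand for Tie1, chr4:94739039-94739288 on the plus strand for Tek, chr5:147726012-147726261 on the minus strand for Flt1 and chr5:75978456-75978705 on the minus strand for Kdr.
Tie1: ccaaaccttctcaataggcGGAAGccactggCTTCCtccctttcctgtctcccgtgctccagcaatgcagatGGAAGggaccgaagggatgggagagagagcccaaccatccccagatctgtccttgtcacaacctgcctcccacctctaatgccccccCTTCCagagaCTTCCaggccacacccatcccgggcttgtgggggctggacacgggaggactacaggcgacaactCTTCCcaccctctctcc
Tek: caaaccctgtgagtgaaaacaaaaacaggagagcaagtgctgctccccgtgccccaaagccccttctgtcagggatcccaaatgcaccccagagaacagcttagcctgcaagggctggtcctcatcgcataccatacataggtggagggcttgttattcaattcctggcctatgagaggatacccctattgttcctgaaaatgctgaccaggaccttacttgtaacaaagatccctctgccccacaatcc
Flt1: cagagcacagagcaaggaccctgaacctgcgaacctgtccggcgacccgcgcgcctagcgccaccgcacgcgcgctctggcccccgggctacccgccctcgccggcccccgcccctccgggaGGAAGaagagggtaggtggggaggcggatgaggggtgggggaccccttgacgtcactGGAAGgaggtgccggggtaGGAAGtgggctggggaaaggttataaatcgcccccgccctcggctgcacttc
Kdr: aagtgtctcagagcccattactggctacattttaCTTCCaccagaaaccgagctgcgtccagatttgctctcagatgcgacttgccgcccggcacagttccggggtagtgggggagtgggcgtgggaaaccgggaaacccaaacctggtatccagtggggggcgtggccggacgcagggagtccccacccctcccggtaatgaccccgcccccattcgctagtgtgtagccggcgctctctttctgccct

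The ETS core occurred 6 times in the Tie1 window, 0 times in the Tek window, 3 times in the Flt1 window and 1 time in the Kdr window. It is a common string, present in 65.1% of 21263 promoter windows of the same length. The Flt1 and Kdr windows were rich in CpG, with 23 and 16 CpG dinucleotides, against 6 for Tie1 and 2 for Tek and a median of 10 over all windows. The GC box, GGGCGG on either strand, occurred 3 times at Flt1 and 2 times at Kdr and is in 42.6% of all windows, and neither the Tie1 nor the Tek window held it. The TATA string, TATAAA, matched once, at Flt1 (11.6% of all windows). The AP-1 site TGANTCA, the GATA site AGATAA and the SOX site ACAATGG had 0 matches in the 4 windows, and 6.13%, 8.81% and 2.37% of all windows hold them. A match is a string in the reference sequence and no evidence of binding.

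The directions differed between the genes. Summed over the peaks that passed a filter on low signal (a mean of at least 13.96 normalized reads over both libraries, called tested peaks), Tie1 was 2.36-fold (1.89 to 2.95) and Flt1 1.47-fold (1.33 to 1.63) in ablation over control, Kdr was 1.41-fold (0.906 to 2.19), Pecam1 0.957-fold (0.911 to 1.01) and Tek 0.646-fold (0.569 to 0.733). Thus 1 of the 5 genes measured was at least 2-fold higher and none 2-fold lower. Over all genes, 1.19% were higher and 0.418% lower by that much. Such a gene was not particular to this set. In marker lists below, 2 of 7 mural, 1 of 6 Langerhans and myeloid and 1 of 5 fibroblast genes were at least 2-fold higher. The other lists had 0. Each of these marker genes rests on 1 weak peak. The mural genes were Kcnj8 (35 reads in ablation, 16 in control) and Pdgfrb (25 in ablation, 14 in control). The others were Csf1r (31 in ablation, 19 in control) and Twist2 (25 in ablation, 12 in control). Tie1 had 233 reads in ablation and 127 in control over 3 tested peaks. Cdh5 had no peak above the filter. The median log2 ratio over the 5 genes measured was 0.48, and that over all 16272 genes with a tested peak was -0.07. The value of 0.48 is that of Kdr, which has 1 peak and an interval that includes 1. Over the 40 tested peaks of the genes the median log2 ratio was 0.085, and over all tested peaks -0.012. Over all tested peaks the ratio fell with signal (values are given with Kdr below), and these medians are not adjusted for it. When each library was instead divided by its total over the table, in which mitochondrial reads are 31.2% in ablation and 7.31% in control, the median of all tested peaks shifted by -0.34. On that scale the log2 ratios were 0.89 for Tie1, 0.22 for Flt1, -0.40 for Pecam1 and -0.97 for Tek. Pecam1 changed sign, to 0.027, when nuclear totals were used, and to 0.0038 after a loess correction of the ratio on signal, and the other 4 genes measured kept their direction under these 3 alternatives.

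**Figure D1:**
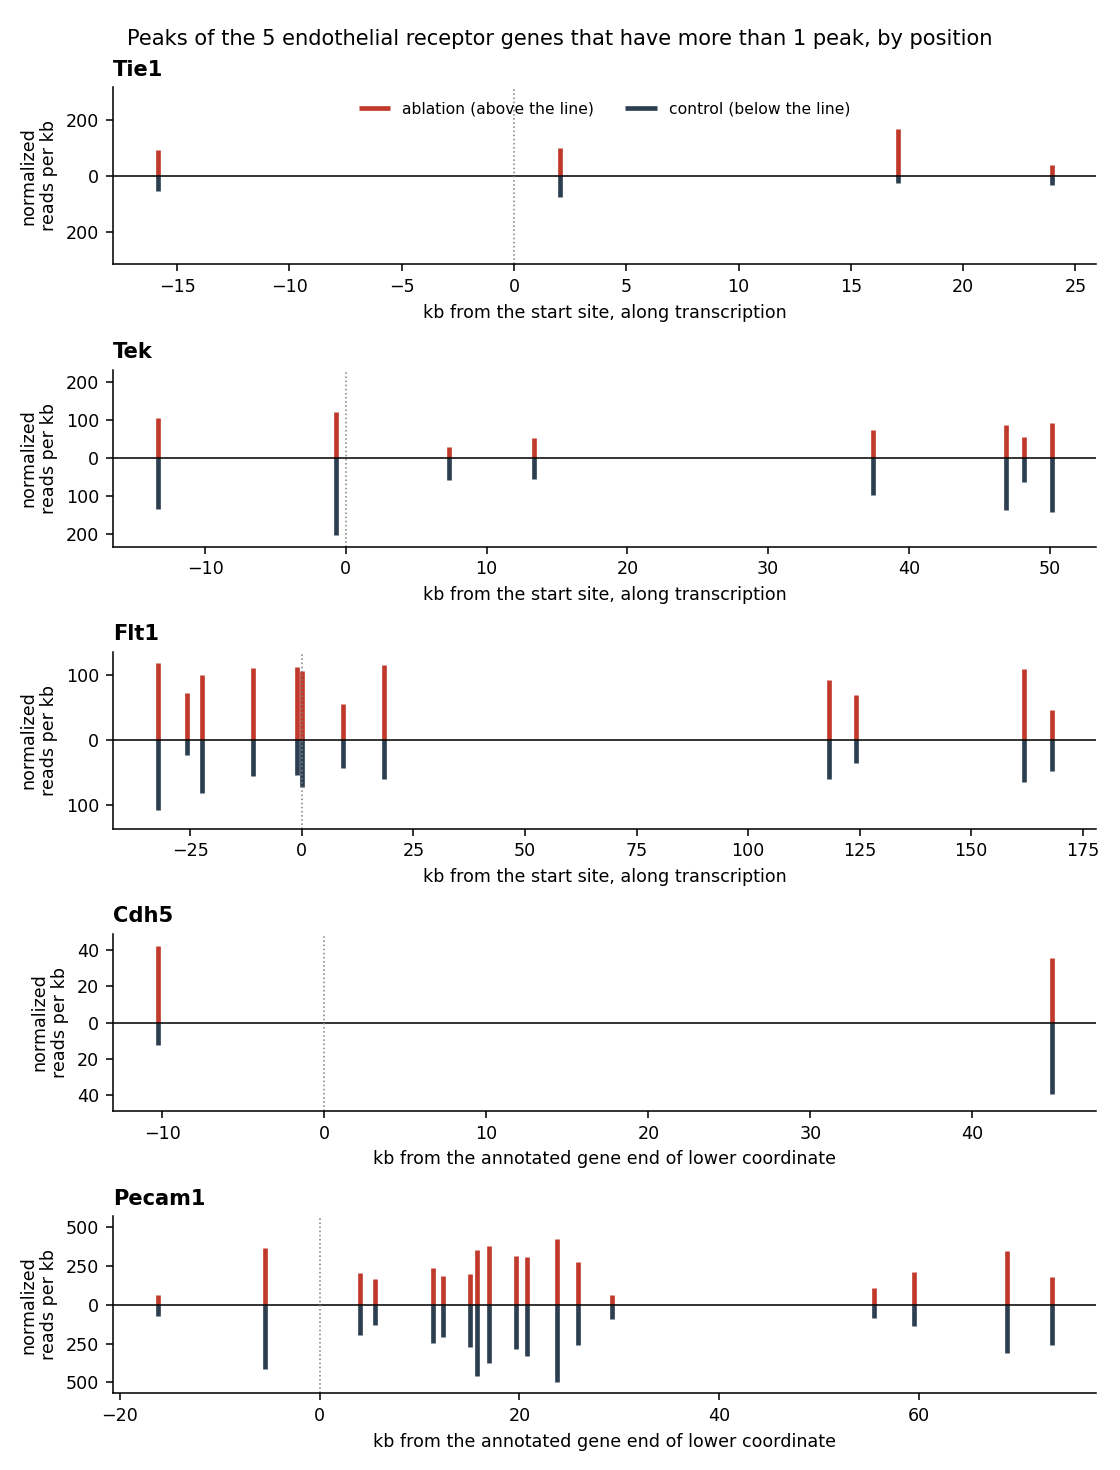
Normalized reads per kb of peak at the 5 genes with more than 1 peak, ablation above the line and control below it, against the distance in kb from the start site (Tie1, Tek, Flt1) or from the annotated gene end of lower coordinate (Cdh5, Pecam1); each pair of bars is 1 peak, and each panel has its own scale. The Tie1 peak 17.1 kb into the gene stands at 166 per kb in ablation and 27.0 per kb in control, while the Tek bars are shorter in ablation at all 8 peaks and the Flt1 bars longer at 11 of 12 peaks.

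At Tie1 (chromosome 4, 118471191 to 118489849), the difference was concentrated in 1 peak of the gene body. This peak, at 118472442 to 118473070, lies 17.1 kb downstream of the start, near the far end of the gene. It had 104 normalized reads in ablation (115 reads) and 16.9 in control (24 reads), which is 6.16-fold (3.94 to 10.0). A second peak in the gene body, 2.03 kb downstream of the start, had 55.3 normalized reads in ablation and 42.3 in control, 1.31-fold with an interval that includes 1 (0.900 to 1.9). A peak 15.9 kb upstream of the start had 51.7 in ablation and 30.3 in control, 1.70-fold (1.13 to 2.59). The remaining peak, beyond the far end of the gene, was below the filter with 10.9 normalized reads in ablation and 9.17 in control. All 4 values were thus higher in ablation, but without the peak 17.1 kb downstream the log2 ratio of the gene was 0.55 rather than 1.23. The nearest peak to the printed promoter window was 1748 bp away, and no peak lay over its annotated start. Around the gene, 63 tested peaks assigned to other genes or to none within 500 kb had a median log2 ratio of 0.12. Of the 63, 3 were at least 2-fold higher and 0 lower, against 4.48% and 1.88% of all tested peaks.

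At Tek (chromosome 4, 94739086 to 94874976), all 8 peaks were lower in ablation, 7 of them above the filter. The strongest peak, at 94737980 to 94739219, overlaps the printed promoter window. It had 149 normalized reads in ablation (164 reads) and 251 in control (355 reads), 0.594-fold (0.490 to 0.716). Peaks 46.9 kb and 50.1 kb downstream of the start, inside the gene, also had intervals below 1. The first had 54.4 normalized reads in ablation and 86.8 in control, 0.627-fold (0.453 to 0.860). The second had 35.4 in ablation and 54.3 in control, 0.651-fold (0.431 to 0.969). The intervals of the other 5 peaks include 1, among them the lowest ratio, 0.476-fold (0.206 to 1.01), at 94746467 to 94746794 with 10 reads in ablation and 27 reads in control. On the scale of signal plus 1 this peak was at a log2 ratio of -0.99, just short of the call. Among the 2961 genes with at least 7 tested peaks, 1.55% had all of them lower in ablation. Both the bound of 7 peaks and the pattern were taken from Tek itself, and genes with more peaks are included. The share is therefore a description and no measure of how rare such a gene is. The 43 other tested peaks within 500 kb of Tek had a median log2 ratio of -0.04, and 19 of them were above 0. Of the 43, 3 were at least 2-fold higher and 1 at least 2-fold lower, against 4.48% and 1.88% of all tested peaks.

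At Flt1 (chromosome 5, 147561604 to 147726438), 10 of the 11 tested peaks were higher in ablation, and 7 of them had intervals above 1. The peak over the promoter window, at 147725125 to 147726726, was the strongest, with 171 normalized reads in ablation (189 reads) and 114 in control (162 reads), 1.5-fold (1.21 to 1.86). The next peak upstream, at 147726885 to 147727438, had 62.6 normalized reads in ablation and 29.6 in control, 2.11-fold (1.42 to 3.18). It was called, with a log2 ratio of 1.05 on the scale of signal plus 1. The call was lost with a pseudocount of 5 (0.96), after the loess correction (0.95) and with table totals (0.72), while the Tie1 peak stayed called in all 3, at 2.22 or more. A peak 10.95 kb upstream of the start missed the call at 0.99, with 54.4 normalized reads in ablation and 26.8 in control. Inside the gene, the peak 161.9 kb downstream of the start, near its far end, had 91.6 in ablation and 52.9 in control, 1.73-fold (1.27 to 2.37). The lowest ratio was 0.989-fold (0.713 to 1.37), just beyond the far end of the gene, with 63.5 in ablation and 64.2 in control. A weak peak 25.3 kb from the gene was left out by the filter, with 15.4 in ablation (17 reads) and 4.94 in control (7 reads). Among the 1358 genes with at least 11 tested peaks, 2.36% had at most 1 tested peak that was not higher in ablation. As for Tek, this bound and pattern were taken from the gene itself, so the share is a description only. The 34 other tested peaks within 500 kb had a median log2 ratio of 0.07. Of the 34, 1 was at least 2-fold higher and 0 lower, against 4.48% and 1.88% of all tested peaks.

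Kdr (chromosome 5, 75932827 to 75979072) had 1 peak, over its promoter window, at 75978122 to 75978695. It held 41.7 normalized reads in ablation (46 reads) and 29.6 in control (42 reads), and the interval of its ratio includes 1. The 3 promoter peaks can be set beside the 10095 tested peaks over promoter windows of all protein-coding genes, whose median log2 ratio was -0.09. The Tek promoter peak, at -0.75, lay at percentile 0.485 of that distribution, the Kdr peak, at 0.48, at percentile 94.2 and the Flt1 peak, at 0.58, at percentile 96.0. All 3 were weak for promoter peaks, and the percentiles are not adjusted for signal. In 10 equal classes of all tested peaks by signal, the median log2 ratio fell from 0.20 in the weakest to -0.18 in the strongest. It was 0.12 in the class of the Kdr peak and -0.06 in that of the Tek and Flt1 promoter peaks. Per kb of peak, the level at Tek was 120 normalized reads in ablation and 202 in control, at Flt1 107 in ablation and 71.4 in control, and at Kdr 72.8 in ablation and 51.7 in control. The median level over all promoter peaks was 274 per kb in ablation and 289 per kb in control.

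Cdh5 (chromosome 8, 104101613 to 104144504) had no peak inside the gene. Its 2 peaks lay outside it, and both were below the filter. One, 10.1 kb from the gene, had 17.2 normalized reads in ablation (19 reads) and 4.94 in control (7 reads), 3.49-fold (1.40 to 9.82). The other, 1.81 kb from the opposite end, had 12.7 in ablation (14 reads) and 14.1 in control (20 reads), 0.900-fold (0.420 to 1.87).

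Pecam1 (chromosome 11, 106654213 to 106715281) was the most accessible of the 6 genes and the closest to no difference. All 18 of its peaks passed the filter, 8 of them higher and 10 lower in ablation. A chain of 10 peaks with gaps of at most 5 kb spanned 18.3 kb of the gene, gaps included, from 106665264 to 106683555. The strongest of them, at 106674205 to 106675760, had 475 normalized reads in ablation (524 reads) and 512 in control (726 reads), 0.928-fold (0.828 to 1.04). The highest ratio of the gene was at 106713381 to 106714020, the peak nearest to the annotated end of higher coordinate, with 135 normalized reads in ablation and 86.8 in control, 1.56-fold (1.22 to 1.99). The lowest was at 106727235 to 106727709, outside the gene, with 83.4 in ablation and 123 in control, 0.680-fold (0.522 to 0.880). The peaks of Pecam1 therefore lay on both sides of no difference, and the gene as a whole was at a log2 ratio of -0.06.

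**Figure D2:**
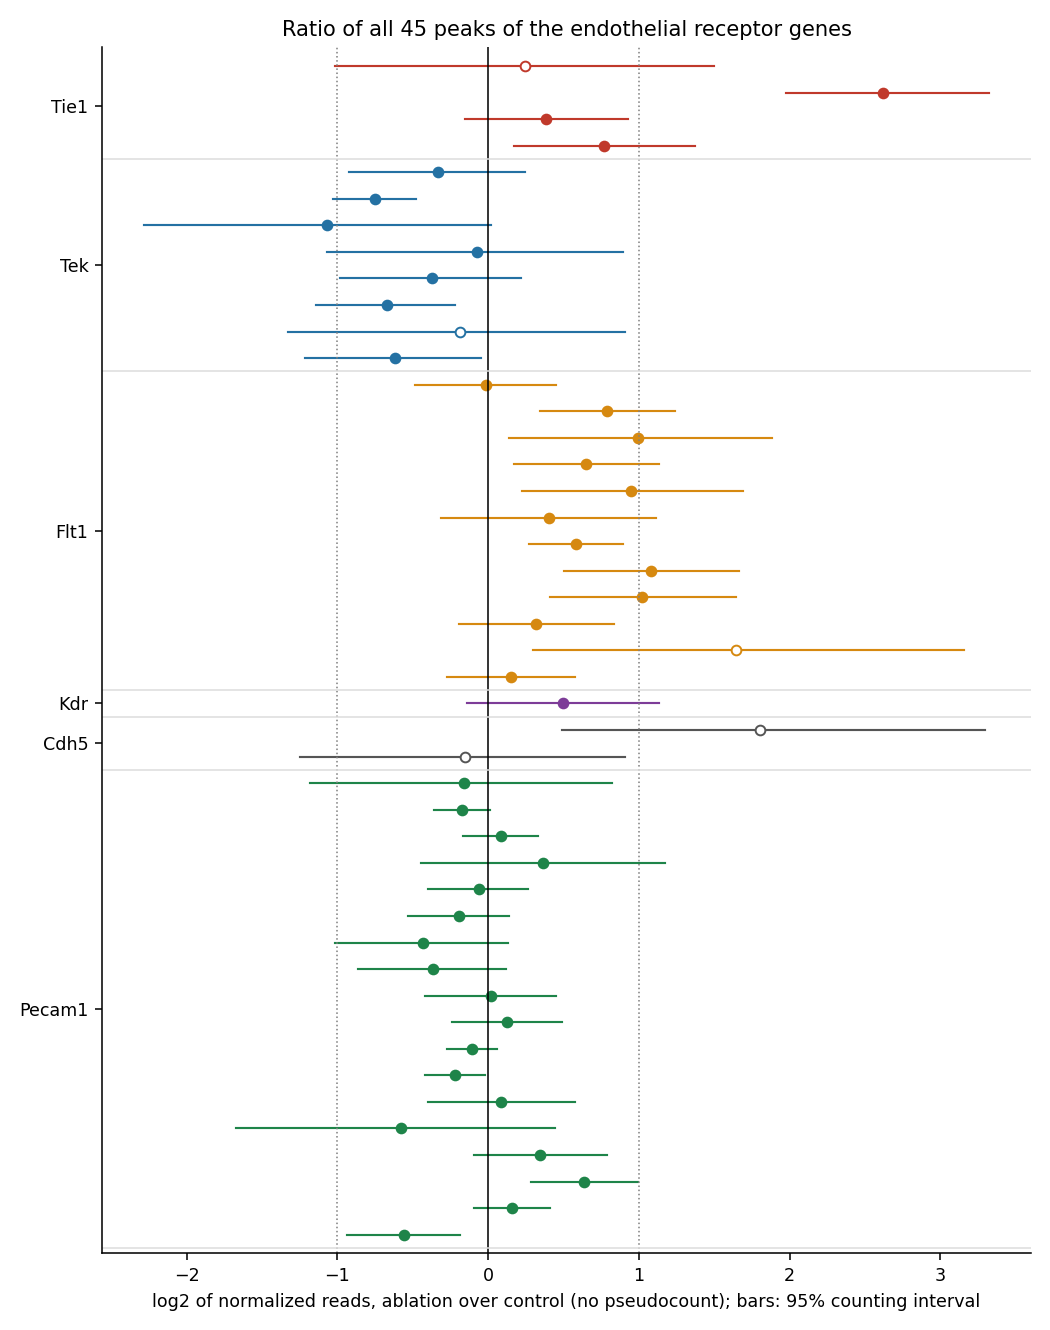
The log2 ratio of normalized reads, ablation over control, for all 45 peaks, ordered by coordinate within each gene; bars are 95% counting intervals, open circles are the 5 peaks below the filter, and dotted lines mark 2-fold. The Tek points lie left of 0, all but 1 of the Flt1 points right of it and the Pecam1 points on both sides, and 1 Tie1 peak stands apart at 6.16-fold.

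Levels per kb, summed over the tested peaks of a gene, gave another order in each library; intervals here are exact Poisson intervals of the reads. In ablation Pecam1 came first at 260 normalized reads per kb (251 to 270), then Tie1 at 120 (105 to 137), Flt1 at 91.8 (85.7 to 98.3), Tek at 90.7 (81.7 to 100.4) and Kdr at 72.8 (53.3 to 97.1). In control the order was Pecam1 at 272 per kb (263 to 281), Tek at 140 (130 to 151), Flt1 at 62.4 (57.9 to 67.1), Kdr at 51.7 (37.3 to 69.9) and Tie1 at 50.9 (42.5 to 60.6). The intervals of Flt1, Tek and Kdr overlapped in ablation, as did those of Flt1, Kdr and Tie1 in control. Tie1 was therefore second in ablation and among the lowest in control. Its 3 tested peaks stood at 166, 98.8 and 90.4 per kb in ablation and, in the same order, at 27.0, 75.6 and 53.0 in control.

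Over all 6 genes, 40 of the 45 peaks passed the filter, and 2 of the 40 (5%) were at least 2-fold higher in ablation, against 4.48% of all 76147 tested peaks. None of the 40 was at least 2-fold lower, against 1.88% of all tested peaks. These counts depend on the scaling: 5 were higher and 0 lower of the 39 that passed the filter with nuclear totals, and 1 was higher and 2 lower of 40 with table totals. Ratios above 1 were found for 22 of the 40, against 48.7% of all tested peaks. At 1.5-fold, 9 were higher and 4 lower, where the background was 13% and 7.47%. Intervals lay above 1 for 10 of the 40 and below 1 for 5, against 15% and 18.2% of all tested peaks. The median signal over both libraries was 60.4 normalized reads for the 40 peaks and 66.1 for all tested peaks. By gene it was 103 at Pecam1, which holds 18 of the 40, and 53.1 at Flt1, 48.8 at Tie1, 43.0 at Tek and 35.7 at Kdr. When all tested peaks were divided into 10 equal classes by signal, 3.7% of the class that holds the Tie1 peak at 6.16-fold were at least 2-fold higher, as were 5.81% of the class that holds the called Flt1 peak.

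**Figure D3:**
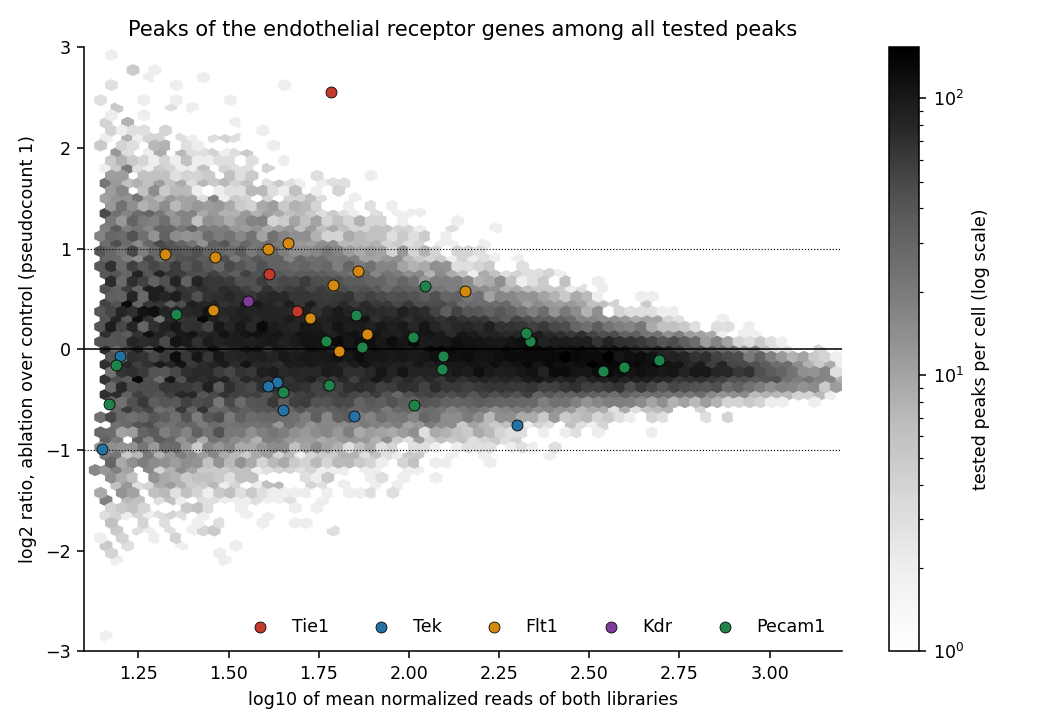
The log2 ratio of ablation over control (pseudocount 1) against the log10 mean signal of both libraries, for all tested peaks within the axes as grey cells and for the 40 tested peaks of the endothelial receptor genes as coloured points. The Tie1 peak lies above the cloud at its signal, the Tek promoter peak lies at the lower edge of the cloud, and the Pecam1 points lie along its middle.

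The deposited table lists its peaks in 4 successive runs, each in chromosome order, and the direction of a peak goes with the run. Of tested peaks first listed in the first run 90.8% were higher in ablation, in the second run 19.9% and in the third run 47.1%. Of the 45 peaks, 5 were first listed in the first run and all 5 were higher in ablation. Another 5 were first listed in the second run and none was higher, and 20 of the 35 in the third run were higher. Unlike the shares, these counts include peaks below the filter. In run order, 2 of the 5, 4 of the 5 and 34 of the 35 were tested peaks. The Tie1 peak at 6.16-fold, the promoter peaks of Tek, Flt1 and Kdr and 10 of the 12 peaks of Flt1 belong to the third run. What the runs stand for is not stated.

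A list chosen with earlier results of these data known held 12 ligands, co-receptors and related receptors of the same pathways. Of these, 9 had a tested peak, and their median log2 ratio was 0.23. Of the 9, 7 were above 0, against 38.4% of all genes, which were not matched for signal. None reached 1.5-fold in either direction, where 4.55% of all genes were 1.5-fold higher and 1.49% lower. The highest were Flt4, the receptor of VEGF-C and VEGF-D, at 1.43-fold (1.05 to 1.96) and Pgf, placental growth factor, at 1.33-fold (1.18 to 1.5). The lowest were Angpt4, an angiopoietin, at 0.771-fold (0.665 to 0.894) and Vegfd, a ligand of Flt4, at 0.903-fold (0.795 to 1.03). Pgf had 520 normalized reads in ablation and 390 in control, and Flt4 had 80.7 in ablation and 56.5 in control. The angiopoietin genes Angpt1 and Angpt2, which encode the main ligands of Tek, had no tested peak.

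Of 30 other endothelial markers, 27 had a tested peak, with a median log2 ratio of 0.04 and 15 of 27 above 0. Those furthest apart were Ecscr, an endothelial cell surface protein, at 1.93-fold (1.28 to 2.92) and Icam2, an adhesion molecule, at 1.81-fold (1.12 to 2.94), and Clec14a, an endothelial lectin, at 0.758-fold (0.432 to 1.30) and Apln, a peptide of sprouting vessels, at 0.801-fold (0.711 to 0.901). Ecscr, Icam2 and Clec14a each rest on 1 peak. The levels of Ecscr were 57.1 normalized reads in ablation and 29.6 in control, and those of Icam2 were 40.8 in ablation and 22.6 in control. Summed over the 27 genes, the list had 10439 normalized reads in ablation and 10824 in control, with single genes between 20.9 and 1388 in ablation and between 16.2 and 1575 in control. Emcn (endomucin), the transcription factor Fli1 and Prox1, a factor of lymphatic endothelium, had no tested peak. Of the 27 genes, 2 were at least 1.5-fold higher (Ecscr and Icam2) and 0 lower, and the backgrounds are the 4.55% and 1.49% given above. A part of endothelial cells in the values of the 6 genes was not tested.

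At the median, genes of the sorted cell type had stronger peaks than the endothelial receptor genes. The highest peak of a gene, per kb, had a median of 610 normalized reads in ablation and 641 in control over 12 basal keratinocyte markers. Over the 5 endothelial receptor genes measured it was 120 in ablation and 106 in control, and over all genes 291 in ablation and 309 in control. Pecam1 was the exception among the 5, at 426 per kb in ablation and 496 in control, above the median of all genes but below that of the basal markers. It was above the basal keratin gene Krt15, the lowest of the 12 basal markers, at 268 in ablation and 242 in control. The highest peak was taken over 18 tested peaks at Pecam1 and 3 at Krt15. The median number of tested peaks was 13.5 for the basal markers, 7 for the endothelial receptor genes measured and 2 for all genes. The levels are not adjusted for this number. Basal markers had a median log2 ratio of -0.13, from Krt5, a keratin of basal cells, at 1.16-fold (1.09 to 1.22) and Krt15 at 1.12-fold (0.985 to 1.27) to the hemidesmosome genes Col17a1 at 0.785-fold (0.741 to 0.833) and Itga6 at 0.830-fold (0.792 to 0.870).

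**Figure D4:**
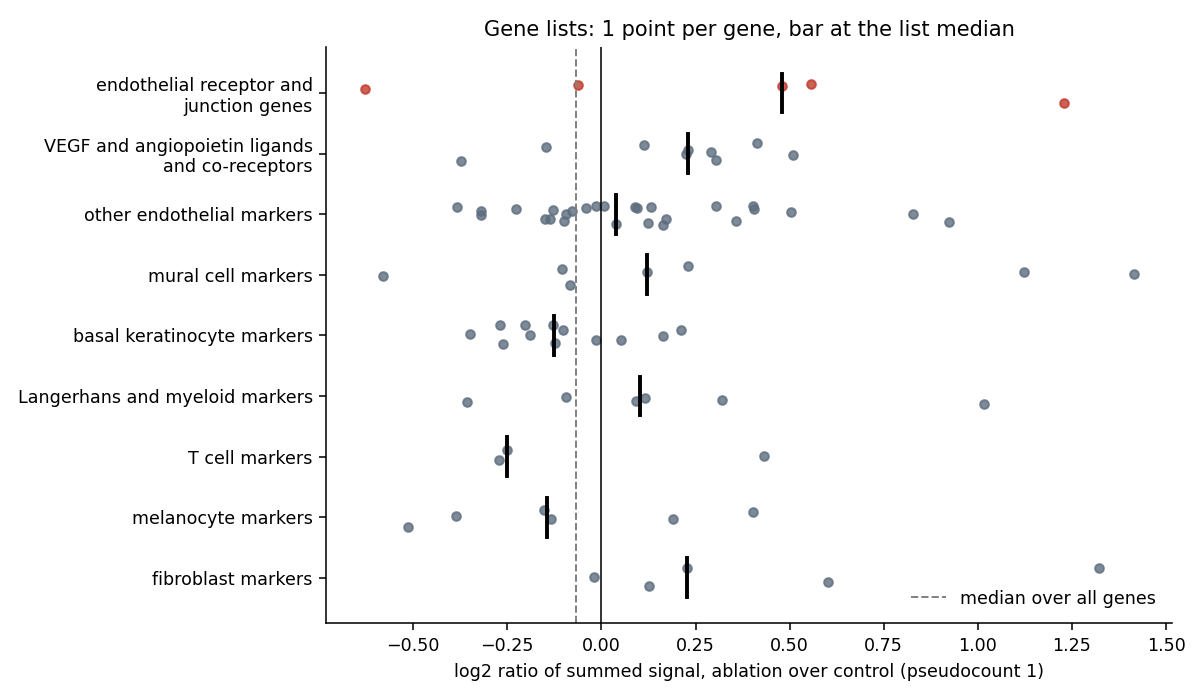
The log2 ratio of summed signal, ablation over control (pseudocount 1), with 1 point per gene that had a tested peak, by gene list; the black bar is the median of the list and the dashed line the median over all genes, -0.07. The 5 endothelial receptor genes spread from -0.63 (Tek) to 1.23 (Tie1), while the 12 basal keratinocyte markers lie between -0.35 and 0.21.

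Lists of other cells that a skin sort could hold were measured in part. Mural cell markers, which mark the pericytes and smooth muscle of vessels, had a median log2 ratio of 0.12 over 7 of 9 genes and a sum of 3876 normalized reads in ablation and 4101 in control. The named mural genes were Kcnj8, a potassium channel, at 2.81-fold (1.52 to 5.44) from 1 peak with 35 reads in ablation and 16 reads in control, Myh11 at 1.18-fold (0.765 to 1.81), Cspg4 at 0.930-fold (0.882 to 0.981) and Des at 0.665-fold (0.477 to 0.919). Rgs5 and Abcc9, pericyte markers, had no tested peak. For Langerhans and myeloid markers the median was 0.10 over 6 of 10 genes, between Csf1r at 2.1-fold (1.15 to 3.93) and Itgam at 0.780-fold (0.686 to 0.886), and their sum was 640 normalized reads in ablation and 709 in control. Fibroblast markers had a median of 0.23 over 5 of 8 genes, with Vim at 1.52-fold (1.26 to 1.84) and Col1a1 at 0.986-fold (0.862 to 1.13), and summed to 832 in ablation and 726 in control. T cell markers had a median of -0.25 over 3 genes of the 6 that matched a protein-coding gene by symbol, out of 8 listed, between Cd3e at 1.35-fold (1.14 to 1.60) and Cd2 at 0.828-fold (0.778 to 0.880). Melanocyte markers had a median of -0.14 over 6 of 8 genes, between Sox10 at 1.32-fold (1.06 to 1.65) and Mlana at 0.697-fold (0.506 to 0.953).

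The genes closest to Tie1 in log2 ratio and log2 mean summed signal together, over the 2 libraries, were Colca2, Zfp536 and Nefl, at distances of 0.06, 0.13 and 0.14 in these log2 units. Colca2 had 202 normalized reads in ablation and 88.2 in control, where Tie1 had 211 in ablation and 89.6 in control. The closest to Tek were Exoc7, Lrrk2 and Kif18a, at distances of 0.05, 0.09 and 0.10. Exoc7 had 330 normalized reads in ablation and 502 in control, where Tek had 336 in ablation and 521 in control. With 2 libraries, such likeness says only that the values of these genes are similar.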

How the data were processed

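The table that the authors deposited gives, for each peak, a signal normalized per library. The submitters' processing notes name build mm10 and, among the tools, MACS2 2.1.0.20151222, HTSeq, Bowtie2 2.3.4.2, Trimmomatic and Picard. Tool settings, scaling and peak selection are not given in the labels. Both columns held only whole multiples of the value of 1 read, which is 0.907 in ablation and 0.706 in control, to within 0.1 of that value, so read numbers were recovered. Columns were matched by name: the number 2 in the name of the control column is absent from the title of that sample, and the column named Exp was read as the ablation sample, there being no other. The 116411 rows held 84594 distinct peaks; 3 mitochondrial peaks were left out of comparisons. Coordinates are those of the table, with the base of its starts (0 or 1) unknown.

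Peaks at or above the 10th percentile of mean signal (13.96 normalized reads), called tested peaks here, were held against size thresholds. A floor of 3 reads is 2.72 normalized reads in ablation and 2.12 in control. Log2 ratios use a pseudocount of 1. Intervals are Clopper-Pearson intervals of recovered reads; PCR copies are not independent molecules. Genes come from RefSeq GRCm38.p6, protein-coding, and all 6 matched by symbol; the 6 genes and the lists were chosen with earlier results of these data known. For each other list, the named genes come from the 2 highest and 2 lowest log2 ratios among genes with at least 50 reads. Only the highest and the lowest are given for Langerhans and myeloid, fibroblast, T cell and melanocyte markers. Pdgfrb and Twist2, below that number of reads, are named because they passed 2-fold. Other named genes without a value are those with no tested peak. The steps were tested on simulated data. Recovery of calls was checked there only for changes well past the 2-fold threshold and only in peaks that were not weak. Alternatives changed the filter, pseudocount, threshold, scaling, assignment and gene value. Software was matplotlib 3.10.9, statsmodels 0.14.6, scipy 1.17.1, numpy 2.4.6 and pandas 2.3.3 under Python 3.11.15.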

Additional observations from a re-analysis of the deposited data

Results flagged for a closer look

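The mitochondrial genome, whose peaks are left out of all comparisons and enter only the totals of the table-total scaling, held 31.2% of the reads of the ablation library within peaks (31.2 to 31.3, exact binomial interval) and 7.31% of those of the control library (7.30 to 7.32). It is listed because this part of the table stood higher in ablation than in control. With 1 library per group, no library was checked against others of its group.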

How the results depend on the processing

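Of 104 recomputed values, 79 stayed within the counting interval (genes), within 0.1 (median over genes) or within 1.5 times (counts), and 25 moved; no called value changed sign. The count of peaks at least 2-fold higher, 2 as reported, was 4 without the low-signal filter, 1 with a pseudocount of 5, 9 at 1.5-fold, 1 at 3-fold, 1 with scaling by the table total, 5 with scaling by the nuclear total, 1 after the loess correction, 1 with overlapping peaks alone and 1 without Tie1. The count of peaks at least 2-fold lower, 0 as reported, was 1 with a pseudocount of 0.5, 4 at 1.5-fold, 2 with the table total and 1 after the loess correction. Scaling by the table total, mitochondrial reads included, shifted the median of all tested peaks by -0.34 and gave log2 ratios of 0.89 for Tie1, -0.97 for Tek, 0.22 for Flt1 and -0.40 for Pecam1, with a median of 0.15 over the genes. Relative to that shift the order of the genes was as reported. Pecam1, whose interval includes no difference, changed sign, to 0.027 with the nuclear total and 0.0038 after the loess correction. The value of Tie1 was 0.75 as the median of its peaks, 2.55 from its highest peak, which is the highest in ablation but not in control (where the highest had 0.38), and 0.55 without its most extreme peak. The median over the genes, 0.48 as reported, was 0.36 after the loess correction, 0.21 without the most extreme peak of each gene and 0.21 without Tie1. Restriction to peaks first listed in the third run of the table was chosen after seeing the data and left all values within these limits. Causes of these moves beyond the construction of each alternative were not tested. Cdh5 entered no value as reported, since its peaks hold 33 reads in ablation and 27 in control. No paired analysis was possible because each group has 1 library.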
